A study of Homo sapiens with 6 samples.

Results

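MALAT1 is a long noncoding RNA of the cell nucleus, and its crosslink events were followed here through all 6 libraries of an iCLIP study of the RNA-binding protein QKI-5. The gene was delimited by position, as every event on the plus strand of chromosome 11 from 65265233 to 65273940 (build hg19), a stretch of 8708 nt. It is 1 of 191243 windows, on either strand, of that length or shorter at a chromosome's end, that held at least 1 event in any library. MALAT1 was chosen by its event counts in these libraries, with its dense sites known, so its level and its dense sites are given as a description, and the comparisons of its inner distribution are not independent of that choice.

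iCLIP maps contacts of a protein with RNA by UV crosslinking, immunoprecipitation and a reverse transcription that stops at the crosslinked base. All 6 libraries came from BEAS2B, an established, virally immortalised line of human bronchial epithelial cells, irradiated with 150 mJ/cm2 of UV. The 3 QKI-5 libraries were made with an antibody raised by the submitters against QKI-5, and the 3 control libraries carry the label of no antibody. The labels give the same protocol text to both groups, mention a high and a low RNase A dilution without saying which library had which, and name no separate cultures behind the replicates, so a p-value speaks of differences among libraries that may have come from 1 culture. Epithelial markers of the line were not analysed here. The QKI-5 libraries held 2143279 to 7283982 events and the control libraries 29810 to 137926.

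MALAT1 is among the most abundant transcripts of many cells. It stays in the nucleus, gathers at nuclear speckles where splicing factors are stored, and lacks a conventional poly(A) tail: RNase P cuts its primary transcript, which frees a small tRNA-like RNA, mascRNA, and leaves an end that a triple helix protects. QKI proteins belong to the STAR family, bind RNA through a KH domain and recognise elements such as ACUAAC or ACUAAU. QKI-5 is the nuclear form and regulates splicing.

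RefSeq lists 3 MALAT1 transcripts and gives the gene, ENSG00000251562.11, a length of 8779 nt in GRCh38.p14, 71 nt more than the stretch used here. Its promoter table holds 2 start sites, shown because the crosslink events described next begin far inside the gene. Each sequence runs 5′ to 3′ on the plus strand, with the 250 bases before the start in lower case and the first 50 transcribed bases in capitals. The first lies at chr11:65497488-65497787 and the second at chr11:65498795-65499094 (both GRCh38.p14), and the second start is 1307 nt downstream of the first.
MALAT1 first start: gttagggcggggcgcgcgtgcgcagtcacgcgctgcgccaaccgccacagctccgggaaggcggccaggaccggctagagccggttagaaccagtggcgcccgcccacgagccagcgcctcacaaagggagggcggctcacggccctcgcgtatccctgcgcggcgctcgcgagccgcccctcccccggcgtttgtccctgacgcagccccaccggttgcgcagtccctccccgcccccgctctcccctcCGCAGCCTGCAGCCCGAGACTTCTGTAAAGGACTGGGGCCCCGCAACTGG
MALAT1 second start: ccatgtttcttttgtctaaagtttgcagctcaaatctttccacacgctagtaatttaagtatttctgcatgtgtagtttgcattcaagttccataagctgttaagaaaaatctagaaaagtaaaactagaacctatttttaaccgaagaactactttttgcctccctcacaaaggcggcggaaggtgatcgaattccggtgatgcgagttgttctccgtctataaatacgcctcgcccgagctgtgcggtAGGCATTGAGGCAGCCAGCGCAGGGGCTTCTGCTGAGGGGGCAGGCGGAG
The first window has a GC content of 73.7% and the second of 46.0%. Neither holds ACTAAC or ACTAAT on either strand, elements that occur in 10.2% of the 35116 promoter windows in the table (3585 windows). Of each window 250 bases lie before its start, so this search does not bear on QKI elements in the RNA.

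The events filled only a part of the gene. From nucleotide 1 to 1281, counted from the 5′ end of the stretch, the QKI-5 libraries held 10, 3 and 6 events (replicates 1, 2 and 3) and the control libraries held none. The first position with at least 10 pooled QKI-5 events was nucleotide 1282, and the 100 nt from there on held 682 QKI-5 and 16 control events. The first control event lay at nucleotide 1285. Both groups thus began within a few nucleotides of each other and about as far into the gene as the second RefSeq start lies from the first. The ends of the stretch and of the RefSeq gene differ between the builds, so this distance was not matched to the base. Which start was used, and the cause of the empty 5′ part, were not tested. The limit of 10 events was chosen after the values were seen.

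At the 3′ end the last position with at least 10 pooled QKI-5 events was nucleotide 8295, and 413 nt remained after it. These held 44, 33 and 16 events in the QKI-5 libraries, against 2, 0 and 0 events in the control libraries. The span between the 2 limits, 7014 nt, took 99.8% of the QKI-5 events and 99.8% of the control events on MALAT1. The longest run without any QKI-5 event ran from nucleotide 183 to 546, inside the empty 5′ part. The plus-strand stretches of equal length on either side were nearly empty: upstream there were 2, 0 and 3 QKI-5 events and no control event, and downstream 28, 12 and 22 QKI-5 events and no control event.

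Levels are given as EPM, the events on MALAT1 for each 1000000 events of its library. QKI-5 replicates 1, 2 and 3 stood at 4730, 4030 and 4556 EPM, and control replicates 1, 2 and 3 at 6076, 4750 and 4529 EPM. These rest on 34452, 8638 and 13164 events in the QKI-5 libraries but on only 838, 197 and 135 in the controls, whose 95% exact binomial intervals were 5672 to 6500, 4111 to 5460 and 3798 to 5358 EPM. The groups overlapped, since QKI-5 replicates 1 and 3 exceeded control replicate 3. The mean was 4439 ± 364 EPM with the antibody and 5118 ± 837 EPM without it (SD, n = 3 each). The ratio of the means was 0.867. By replicate number the ratio was 0.778, 0.849 and 1.01.

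**Figure D1:**
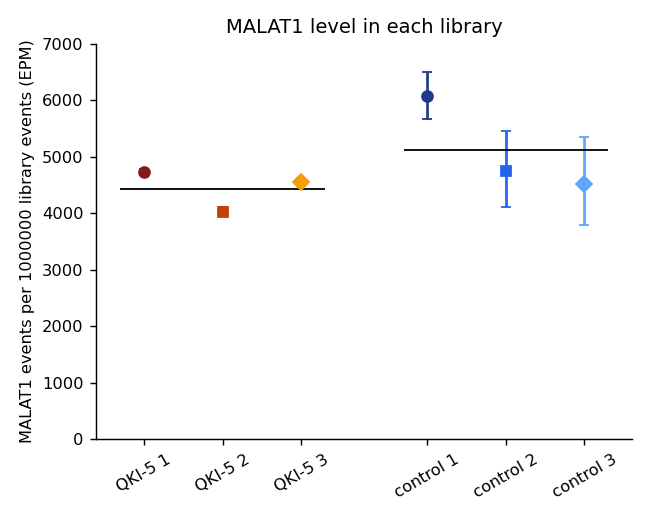
MALAT1 level (EPM, linear axis) in the 3 QKI-5 libraries (left) and the 3 control libraries (right), with 95% exact binomial intervals and horizontal lines at the group means. The groups overlap, at means of 4439 EPM with the antibody and 5118 EPM without it.

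The direction of this difference depended on the scaling. In the edgeR fit over windows of the length of MALAT1, the log2 fold change of QKI-5 over control was 0.46 (SE 0.78) with TMM factors and -0.21 (SE 0.54) with library totals. The 29645 windows fitted had a median of 0.83 under TMM and 0.24 under library totals. Relative to that median MALAT1 stood at -0.37 and -0.45 (log2). The windows fitted outnumber those with any event in control replicate 2 (18434) or 3 (14437), so many of them were at 0 there, and no place of MALAT1 among RNAs is read from these medians. An EPM value does not tell how many cells, how much RNA per cell or how many contacts per RNA stand behind it. Summed over libraries, MALAT1 held 56254 events in the QKI-5 group and 1170 in the controls, numbers that move with library depth.

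Few stretches of the genome took more events. MALAT1 ranked 5, 10 and 6 in QKI-5 replicates 1, 2 and 3 and 10, 14 and 9 in control replicates 1, 2 and 3, among 115702 to 169401 windows with events in QKI-5 libraries and 14437 to 50330 in controls. Ordered by mean EPM over the QKI-5 libraries it was place 7. The next window above lay on the plus strand of chromosome 5 (71143133 to 71151840), at 5687 ± 3010 EPM with the antibody and 14508 ± 4167 EPM without it. Above that stood the plus strand of chromosome X (108291461 to 108300168), at 6999 ± 3884 EPM with the antibody and 22246 ± 13715 EPM without it. Next below were the minus strand of chromosome 1 (91850757 to 91859464), at 3343 ± 1255 EPM with the antibody and 5732 ± 1558 EPM without it, and the plus strand of chromosome 16 (33959973 to 33968680), at 3176 ± 1222 EPM with the antibody and 6528 ± 1130 EPM without it. The ranges of all 4 neighbours overlapped that of MALAT1 in the QKI-5 libraries, so these places are not separated by the spread between libraries. MALAT1 itself had the smallest SD of these 5 windows in both groups.

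The windows whose ups and downs over the 6 libraries were most like those of MALAT1 were sought among the 29 other windows with at least 10 events in every library. The measure was the root mean square difference of the centred log2 EPM, with a median of 0.82 over these 29. The closest, at 0.31, was on chromosome 22 (minus strand, 38879993 to 38888700), whose QKI-5 libraries read 506, 389 and 556 EPM and whose controls read 399, 386 and 335 EPM. It was followed by the mitochondrial plus strand from 7481 to 16188 (0.37) and from 1 to 7480 (0.41), by chromosome 11, plus strand, 65204277 to 65212984 (0.42), and by chromosome 19, minus strand, 24180889 to 24189596 (0.50). Over 6 libraries this is a description only.

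Cut into 14 segments of 622 nt, MALAT1 carried events in every segment from the third on in all 6 libraries. Segments 1 and 2 held 1, 0 and 4 and 7, 2 and 2 QKI-5 events and no control event. In segment 3, which holds the 5′ limit of the events, the shares of all MALAT1 events were 4.16, 4.72 and 4.27% in QKI-5 replicates 1, 2 and 3 and 4.65, 7.11 and 4.44% in control replicates 1, 2 and 3. Segment 4 was the least used of the remaining ones, with 2.07, 2.40 and 2.10% in QKI-5 libraries and 2.86, 2.03 and 0.741% in controls. Counting noise alone is wide in the controls: a share of 0 leaves room for up to 0.358, 1.52 and 2.22% of MALAT1 events in control replicates 1, 2 and 3.

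Segment 13, near the 3′ end (65272697 to 65273318), was the most used segment in the QKI-5 libraries. It took 30.4, 22.1 and 23.0% of the MALAT1 events in QKI-5 replicates 1, 2 and 3, and 5.01, 11.2 and 14.8% in control replicates 1, 2 and 3. The means were 25.2 ± 4.55% with the antibody and 10.3 ± 4.95% without it (SD, n = 3 each). Every QKI-5 library lay above every control. The same held for 27.2% of the 1445 segments, over all windows, that were tested below and whose windows held events in every library. In EPM the segment stood at 1438, 891 and 1048 with the antibody and at 305, 530 and 671 without it, while the rest of MALAT1 stood at 3292, 3140 and 3508 with the antibody and at 5771, 4219 and 3858 without it. On the scale of library totals, segment 13 was thus higher and the rest of the RNA lower in each QKI-5 library than in each control.

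Segment 8 (65269587 to 65270208) went the other way. Its share was 6.06, 4.72 and 4.92% in QKI-5 replicates 1, 2 and 3 and 9.67, 13.2 and 10.4% in control replicates 1, 2 and 3. Every QKI-5 library lay below every control, as in 4.5% of the 1445 segments named above. Segment 10 also separated the groups, but by little, with 6.05 ± 0.312% in QKI-5 libraries and 7.19 ± 0.914% in controls. Segment 12 (65272075 to 65272696) was the most used segment of the controls, with 11.6 ± 1.29% in QKI-5 libraries and 16.8 ± 4.25% in controls, and QKI-5 replicate 2 (12.7%) exceeded control replicate 2 (12.2%). The other tested segments overlapped, among them segment 11 with 6.12 ± 1.39% in QKI-5 libraries and 9.33 ± 2.71% in controls.

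**Figure D2:**
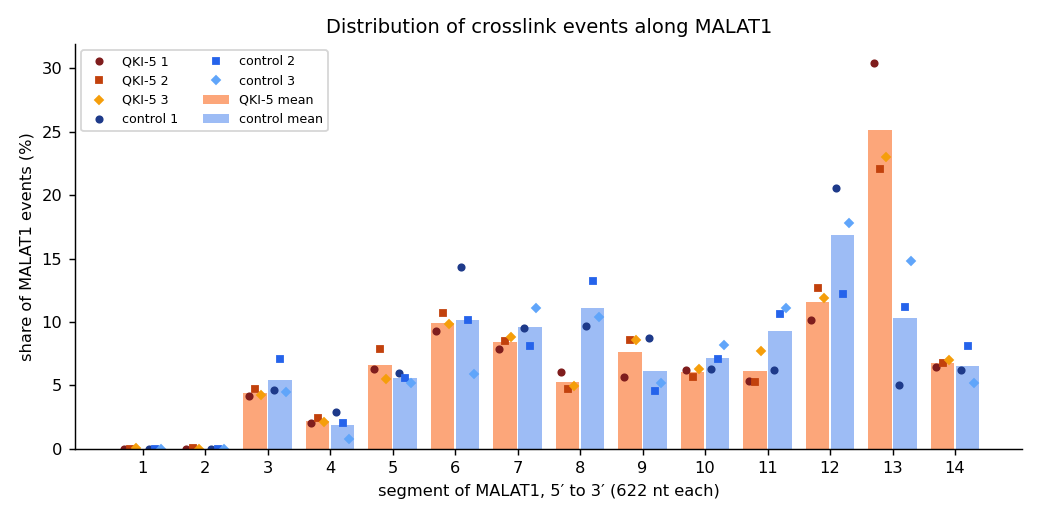
Share of MALAT1 crosslink events (%) in each of 14 segments of 622 nt, ordered 5′ to 3′, with bars for the group means (QKI-5 left, control right) and a point for each library. Segment 13 holds 22.1 to 30.4% in the QKI-5 libraries and 5.01 to 14.8% in the controls, and segments 1 and 2 are nearly empty in both groups.

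Whether a segment's use differed from that of its window was tested with edgeR's quasi-likelihood test on all windows of the genome cut the same way. After the filter on low counts 2382 segments could be tested, 12 of them in MALAT1. Of all tested segments 0.168% were called (4 segments, adjusted p under 0.05 after Benjamini-Hochberg), 0.042% as more used (1 segment) and 0.126% as less used (3 segments) in QKI-5 libraries. No MALAT1 segment was called by edgeR, and 1 had an unadjusted p under 0.05. The log2 fold change of relative use was 1.73 (SE 0.78, unadjusted p = 0.0271, adjusted p = 0.787 by edgeR) in segment 13, -0.99 (SE 0.70, adjusted p = 0.942 by edgeR) in segment 8 and -0.69 (SE 0.74, adjusted p = 0.942 by edgeR) in segment 12. In the 9 others it lay between -0.32 and 0.16. The median absolute log2 fold change of relative use was 0.21 over the 12 MALAT1 segments and 0.98 over all tested segments, many of which hold far fewer events.

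The DESeq2 Wald test, with the events of the rest of the window as normalization factors, called 7.22% of the same segments (172) and 2 of the 12 in MALAT1. These were segment 13, at a log2 fold change of 1.63 (adjusted p = 0.0168 by DESeq2), and segment 8, at -1.13 (adjusted p = 0.00523 by DESeq2). Over 11 edgeR alternatives the adjusted p of segment 13 ran from 0.484 to 0.997 and that of segment 8 from 0.814 to 0.997. These alternatives tested from 95 to 1178625 segments, so their adjusted p-values rest on unlike sets. Segment 13 without control replicate 1 had a log2 fold change of 0.98, and without control replicate 3 of 2.05. Among the 1445 tested segments whose windows held events in every library, 27.2% had a share above every control in every QKI-5 library, and 4.5% had one below, against 1 above and 2 below among the 12 in MALAT1. A segment could pass the filter through the deep QKI-5 libraries alone. One without events in a control cannot lie below it, whereas all 12 in MALAT1 held events in every control. The 2 sets are thus unlike, and nothing is read from setting them side by side.

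Events repeated at 1 position can be PCR copies, and their part in these shares was not tested. With each position counted once, the log2 fold change of relative use was 0.37 (SE 0.47, adjusted p = 0.975 by edgeR) in segment 13 and -0.45 (SE 0.46, adjusted p = 0.975 by edgeR) in segment 8, against 1.73 and -0.99 over all events. On that scale the deep libraries run out of room: in segment 13, 73.0, 45.7 and 52.3% of all nucleotides carried an event in QKI-5 libraries, against 6.27, 2.09 and 2.09% in controls. Drawing 135 events from each library, the number of the smallest one, and counting each position once gave segment 13 27.1, 21.02 and 21.3% in QKI-5 libraries and 5.52, 10.4 and 13.8% in controls. This comparison was chosen after the data were seen, and such a draw weights positions by their events, so it follows the event shares and does not remove copies.

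Within MALAT1, 10 sites of 21 nt with the most events were picked in QKI-5 replicate 1 alone, so that replicates 2 and 3 had no part in the picking. MALAT1 itself was chosen with its dense sites known, so replicates 2 and 3 are not independent of that choice. Of the 10, 6 lay in segment 13 and 5 of these lay close together between nucleotides 7954 and 8069 (65273186 to 65273301), with no more than 50 nt from centre to centre, a limit set after the sites were seen. The first, centred on nucleotide 8013, took 5.70 and 5.39% of MALAT1 events in QKI-5 replicates 2 and 3, and 0, 1.52 and 1.48% in control replicates 1, 2 and 3. In replicate 1, which chose it, it took 10.3%. The second, centred on nucleotide 8034, took 4.20 and 4.85% in QKI-5 replicates 2 and 3, and 0, 0 and 2.22% in the controls. Pooled, these 2 sites held 1201 and 1002 events in QKI-5 replicates 2 and 3, but only 5 and 3 events in the controls, or 0.427% (95% exact interval 0.139 to 0.994) and 0.256% (0.0529 to 0.748) of control MALAT1 events. These pooled shares are set largely by control replicate 1, with 838 of the 1170 events and none at either site. Without it they were 1.51% (0.491 to 3.48) and 0.904% (0.187 to 2.62) of 332 events.

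The third site behaved differently. Centred on nucleotide 7413 in segment 12, it took 7.85 and 5.55% in QKI-5 replicates 2 and 3 and 7.04, 8.12 and 6.67% in control replicates 1, 2 and 3, so the groups overlapped. In QKI-5 replicate 1 it took 4.28%, less than in every control. It held 59, 16 and 9 control events and was the strongest of the 10 sites in every control library. The position with the largest summed share over the QKI-5 libraries, nucleotide 7420, lay inside it, with 167, 177 and 140 events in QKI-5 libraries and 8, 3 and 4 in controls. The other 2 sites outside the 3′ part differed from each other. At nucleotide 3757 the groups overlapped, with 1.74 and 1.16% in QKI-5 replicates 2 and 3 and 1.67, 2.54 and 1.48% in controls. At nucleotide 3688 the shares were 1.99, 2.23 and 2.61% in QKI-5 replicates 1, 2 and 3 and 1.91, 0.508 and 0% in control replicates 1, 2 and 3, so every QKI-5 library lay above every control, replicate 1 by little. The control shares there rest on 16, 1 and 0 events, and how often sites elsewhere separate the groups was not counted.

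**Figure D3:**
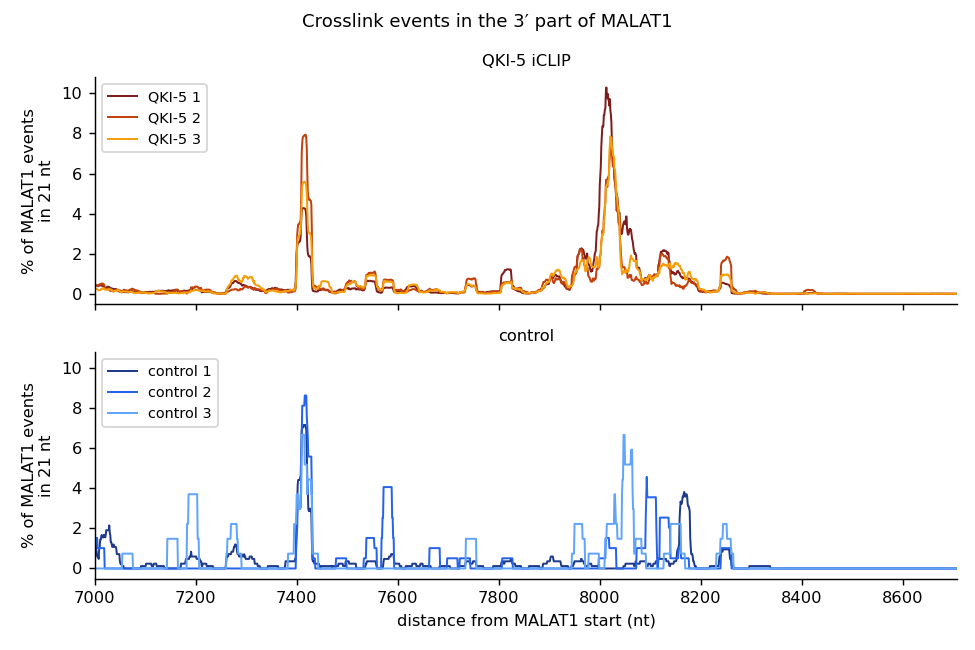
Share of each library's MALAT1 events (%) in a sliding 21 nt, plotted against the distance from the start of MALAT1 over its last part, for the QKI-5 libraries (top) and the controls (bottom) on the same scale. The peak near nucleotide 7413 stands in all 6 libraries, and the peak near nucleotide 8013 in the QKI-5 libraries, while control 3 has one near nucleotide 8059.

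The 116 nt spanned by these 5 close sites, with the short gaps between them, took 13.98 and 15.0% of MALAT1 events in QKI-5 replicates 2 and 3 (and 23.1% in replicate 1), against 0.835, 1.52 and 11.9% in control replicates 1, 2 and 3. Control replicate 3 thus came close to the QKI-5 libraries, on 16 events with a 95% exact interval of 6.93 to 18.5%, and 7 of the 16 fell in the site centred on nucleotide 8059. At that site, the fourth chosen, the shares were 3.24, 0.938 and 1.46% in QKI-5 replicates 1, 2 and 3 and 0.239, 0 and 5.19% in control replicates 1, 2 and 3, so control replicate 3 lay above every QKI-5 library. The fifth, centred on nucleotide 7964, took 2.20 and 1.69% in QKI-5 replicates 2 and 3 and 0.477, 0 and 2.22% in controls, where the groups also overlapped. The remainder of segment 13 took 7.26, 8.12 and 8.01% in QKI-5 libraries and 4.18, 9.64 and 2.96% in controls, where the groups overlapped. Every one of the 116 nt carried an event in some QKI-5 library, and 16 of them in some control.

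All 10 sites together took 28.1 and 26.2% of MALAT1 events in QKI-5 replicates 2 and 3 and 12.3, 15.7 and 20% in controls. The difference of 11.1 percentage points had a two-sided exact permutation p = 0.2, the smallest that 2 libraries against 3 allow. With each position counted once the difference was -4.58 percentage points (two-sided exact permutation p = 0.4), a scale on which the QKI-5 libraries have nearly filled these sites. Of the 10 strongest sites picked in the same way in QKI-5 replicates 2 and 3, 8 and 7 overlapped a site of replicate 1.

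**Figure D4:**
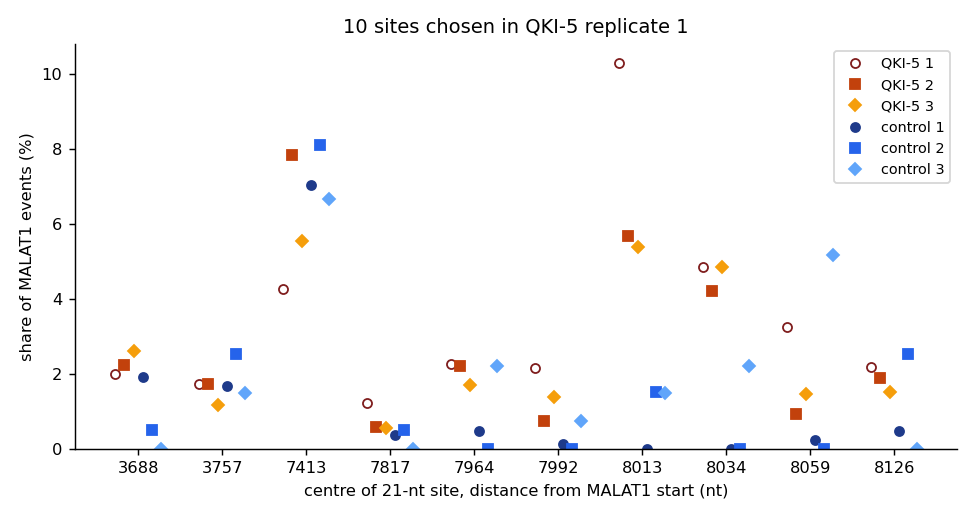
Share of MALAT1 events (%) at the 10 sites of 21 nt chosen in QKI-5 replicate 1, ordered by the distance of their centre from the start of MALAT1, for each QKI-5 library (replicate 1, which chose the sites, as open circles) and each control. At nucleotides 8013 and 8034 QKI-5 replicates 2 and 3 lie at 4.20 to 5.70% and the controls at 0 to 2.22%, while at nucleotide 7413 QKI-5 replicates 2 and 3 lie at 7.85 and 5.55%, the controls at 6.67 to 8.12% and QKI-5 replicate 1 at 4.28%.

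Summaries over the whole RNA separated the groups less. The mean position of the events was 5900, 5648 and 5788 nt from the start in QKI-5 replicates 1, 2 and 3 and 5237, 5360 and 5729 nt in control replicates 1, 2 and 3. The difference of 337 nt had a two-sided exact permutation p = 0.2, and 3 libraries against 3 cannot go below 0.1. The share of events in the last 4354 nt was 68.5 ± 2.39% in QKI-5 libraries and 67.4 ± 4.98% in controls (SD, n = 3 each, two-sided exact permutation p = 0.8). Segment 13 lies in this part of the RNA, as do segments 8, 10, 11 and 12, whose mean shares were lower in the QKI-5 libraries. The mean shares of segments 9 and 14, also in this part, were higher in the QKI-5 libraries. With each position counted once the means were 5062 nt and 5299 nt, a difference of -237 nt (two-sided exact permutation p = 0.2). That scale depends on depth. An event lay on 53.3, 25.7 and 31.3% of the nucleotides in QKI-5 libraries and on 6.49, 1.52 and 1.08% in controls. No change of direction is therefore read from it.

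**Figure D5:**
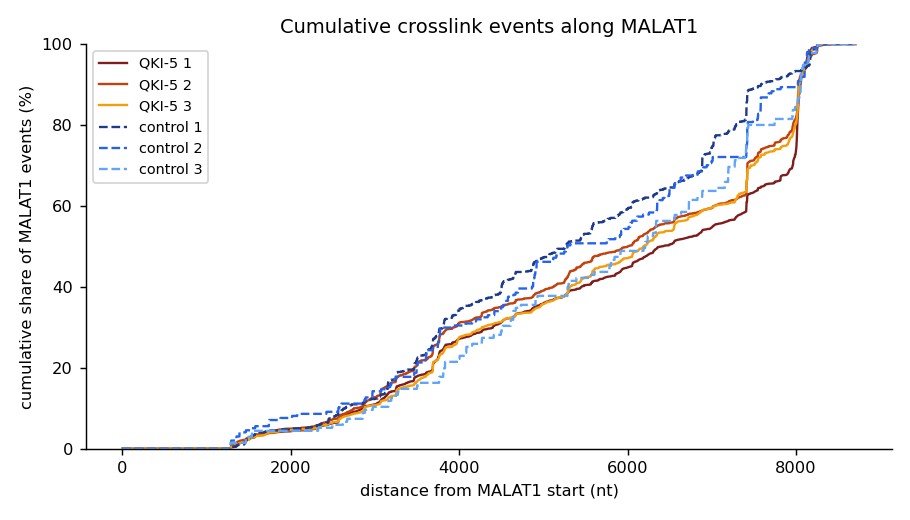
Cumulative share of MALAT1 events (%) against the distance from the start of MALAT1 (nt) for the 3 QKI-5 libraries (solid lines) and the 3 controls (dashed lines). All lines are nearly flat up to about nucleotide 1282 and after nucleotide 8295 and step near nucleotide 7413. The QKI-5 lines rise again near nucleotide 8013, by 10.3, 5.70 and 5.39% over 21 nt in replicates 1, 2 and 3, where the controls rise by 0, 1.52 and 1.48%. From nucleotide 7954 to 8069 control 3 also rises, by 11.9%, against 23.1, 13.98 and 15.0% in QKI-5 replicates 1, 2 and 3. Controls 1 and 2 rise by 0.835 and 1.52% there.

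The profiles of the QKI-5 libraries resembled each other closely. Over the 14 segments Pearson's r was 0.95 to 0.98 between QKI-5 libraries, 0.27 to 0.77 between a QKI-5 library and a control and 0.71 to 0.86 between controls (Spearman's rho 0.89 to 0.95, 0.57 to 0.84 and 0.71 to 0.88). Over single nucleotides r was 0.70 to 0.78 between QKI-5 libraries, 0.14 to 0.39 between a QKI-5 library and a control and 0.08 to 0.20 between controls. The segments share 1 RNA and its base composition, the 2 empty 5′ segments raise each r, and the controls are shallow, so these are descriptions.

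The QKI-5 libraries covered 4642, 2241 and 2723 positions of MALAT1, or 53.3, 25.7 and 31.3% of its nucleotides, and the controls 565, 132 and 94 positions. Of the 722 positions with any control event, 694 (96.1%) also held a QKI-5 event, while 5276 positions (60.6% of the stretch) did so in at least 1 QKI-5 library and 1310 in all 3. At an equal depth of 135 events the expected number of distinct positions was 123, 121 and 124 in QKI-5 libraries and 121, 102 and 94.0 in controls (two-sided exact permutation p = 0.1, the smallest possible). Control replicates 2 and 3 thus repeated positions more often than the other 4 libraries, and control replicate 1 lay close to QKI-5 replicate 2.

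Almost nothing was seen on the opposite strand, where an antisense transcript of MALAT1, TALAM1, is known. The minus strand of the same stretch held 1, 2 and 1 events in QKI-5 replicates 1, 2 and 3 and 3, 0 and 0 events in control replicates 1, 2 and 3. Per 1000 sense events this was 0.0290, 0.232 and 0.0760 in the QKI-5 libraries. In control replicate 1 it was 3.58, and a count of 0 allows up to 15.2 and 22.2 in control replicates 2 and 3, so that a difference was not detectable at this depth (two-sided exact permutation p = 1.0).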

How the data were processed

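The authors deposited, for each library, single-nucleotide positions with whole-number counts of crosslink events, which are not normalized. The submitters' processing notes name cutadapt, Bowtie and build hg19, with versions not given in the sources used here. How PCR copies and reads with several alignments were treated was not stated, so intervals and limits cover counting error only. No hg19 sequence was used here, so crosslink positions were not read against QKI elements. Sequences are from RefSeq (GRCh38.p14).

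The members, segments and tests were chosen with earlier results of these data known. The strand-specific genome was cut into windows of 8708 nt, placed so that MALAT1 is 1 window, and each into 14 segments. Levels were fitted with edgeR 4.0.16 (glmQLFit, filterByExpr, TMM factors, R 4.3.3, limma 3.58.1), and relative use with diffSpliceDGE on all segments, Benjamini-Hochberg adjusted. Standard errors are the fold change divided by the square root of F. DESeq2 1.42.0 was an alternative. The edgeR script was tested on simulated data. Two-sided exact permutation tests used scipy 1.17.1, with Python 3.11.15, numpy 2.4.6, pandas 2.3.3 and matplotlib 3.10.9. An EPM of 1 event is 0.137 to 0.467 in QKI-5 libraries and 7.25 to 33.5 in controls. All segments of MALAT1 are plotted, and a part of them is given by value. The 10 sites chosen in QKI-5 replicate 1 are measured with the first in full. Windows are named by likeness over 6 libraries and by neighbouring level.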

Additional observations from a re-analysis of the deposited data

How the results depend on the processing

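No MALAT1 segment was called by edgeR under any of the 13 edgeR alternatives, and the DESeq2 Wald test called 2. Over all windows 4 of 2382 tested segments were called, against 1 with library totals, 1 with the replicate block and 172 with DESeq2. The same number was tested in each of these settings. With each position counted once it was 6 of 685, and with no filter on low counts 0 of 1178625. Without QKI-5 replicate 1, 2 or 3 none of 95, 98 and 108 was called. Without control replicate 1, 2 or 3 it was 0 of 15750, 1 of 19306 and 3 of 19989. Segments 8, 12 and 13 kept the direction of their fold change throughout, between -1.19 and -0.88, -0.81 and -0.34, and 0.98 and 2.05 with 1 library left out. With each position counted once they were -0.45, -0.60 and 0.37. The MALAT1 log2 fold change of all events was 0.46, and became -0.21 with library totals, 0.26 with DESeq2 size factors in edgeR, 1.01 with no filter, 0.68 with the replicate block, -1.20 with distinct positions and 0.26 in DESeq2. It was -0.09, -0.07 and -0.22 without QKI-5 replicate 1, 2 or 3, fitted over 762, 821 and 819 windows. Without control replicate 1 it was 1.55, fitted over 54971 windows with a median of 6.74, against 29645 windows and 0.83 in the main fit. With 1 library left out the range was -0.22 to 1.55. The set of windows fitted changed each time, and the cause of the differences was not tested. Distinct positions run out in the deep QKI-5 libraries, so the -1.20 is not read as a change of direction.

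With each position counted once, the difference was -237 nt in mean position, -4.64 percentage points in the last 4354 nt and -4.58 percentage points in the 10 sites, all opposite to the main values of 337 nt, 1.07 and 11.1. On this scale the deep QKI-5 libraries run out of new positions, so no change of direction is read from it. Over all events, with 1 library left out, the differences were 234 to 480 nt, -1.31 to 3.66 and 9.25 to 13.1 percentage points. The difference in the last 4354 nt turned to -1.31 without control replicate 1. The antisense difference of -1.08 per 1000 ran from -1.68 to 0.11, and 0.11 is the value without control replicate 1, which held all control antisense events. The difference in rarefied positions, 16.9, ran from 11.1 to 24.7. Rarefying has no counterpart with each position counted once.

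Deviations from the group mean correlated at -0.00392, 0.105 and 0.067 between QKI-5 and control libraries of numbers 1, 2 and 3 over windows. Between QKI-5 and control libraries of unlike number they ran from -0.102 to 0.0621. Many windows were at 0 in control replicates 2 and 3, so these values cannot tell whether the numbers pair the libraries. With the replicate block the log2 fold change of segment 13 was 1.41 (adjusted p = 0.99 by edgeR). The controls' 135 to 838 MALAT1 events limit every comparison.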
